A study of Homo sapiens with 6 samples.

Results

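Protein kinase A (PKA) is the main receptor for cyclic AMP (cAMP) inside the cell. In its resting form a dimer of regulatory subunits holds a pair of catalytic subunits inactive, and binding of cAMP to the regulatory subunits sets the catalytic subunits free to phosphorylate their targets. The protein kinase inhibitor (PKI) peptides bind free catalytic subunits as pseudosubstrates and carry them out of the nucleus. In neuroblastoma cells, cAMP is a classic trigger of neurite outgrowth and differentiation.

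The transcripts of 9 genes of this kinase are described. PRKACA and PRKACB encode catalytic subunits, PRKAR1A and PRKAR1B the type I regulatory subunits, PRKAR2A and PRKAR2B the type II regulatory subunits, and PKIA, PKIB and PKIG the PKI inhibitors. All 9 were found by name among the 58735 genes of the count table, and all 9 were among the 16210 genes tested. They were chosen by name, as a family, when the differences between the groups in these same libraries were already known. Their differences between groups are therefore given as a description, with no p-value.

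The shACSS2 group (n = 3 libraries) is the line labelled BE(2)-C, derived from a neuroblastoma, infected with a lentivirus that carries a short hairpin RNA against ACSS2, the nuclear and cytosolic acetyl-CoA synthetase. The NS group (n = 3 libraries) is the same line with a non-silencing hairpin, and both were kept as stable lines by puromycin. The comparison asks which transcripts differ between the line with this hairpin and the line with the non-silencing one. Whether loss of ACSS2 itself accounts for a difference was not tested. The titles call the knockdown siACSS2 and the treatment text once calls the line shNgBR, so the labels name the reagent in conflicting ways. Sources used here give neither its sequence nor the number of clones, nor whether libraries came from separate cultures, so p-values rest on the spread among these libraries alone, which may be technical.

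The family falls into genes with and without a short sequence in the annotated 3′ UTR, and the sites are shown because the 3 members that were lower in shACSS2 past the test all hold one. The sequences searched for were ATGCTCA and TGCTCAA on the transcript's strand, which overlap in TGCTCA and join to ATGCTCAA. They had been picked out earlier from the fold changes of these same libraries, so a match says nothing independent about a direction. In GENCODE v29 transcripts (GRCh38), the longest 3′ UTR of PRKAR1A held ATGCTCA at 2 places (chr17:68530614-68530642 and chr17:68532324-68532352, plus strand), that of PRKAR2B at 1 place (chr7:107160827-107160855, plus strand) and that of PRKACB at 1 place (chr1:84237752-84237780, plus strand). The capitals mark the match, and 11 bases are given on either side, 5′ to 3′.
PRKAR1A, upstream site: gcattaactaaATGCTCAtacacagttaa
PRKAR1A, downstream site: tgtatataatcATGCTCAtgtatatttag
PRKAR2B: tgttcattgatATGCTCAgtatgctgcca
PRKACB: gatattatgttATGCTCAgtaaataatta
ACSS2, coding sequence: ggattgatgacATGCTCAAtgtatctggac

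PKIA also held ATGCTCA at 2 places in its longest 3′ UTR, and its sequence is not shown here. PKIB, PKIG, PRKACA, PRKAR1B and PRKAR2A held neither sequence. TGCTCAA was in none of the 9. Among the 13262 tested genes with an annotated 3′ UTR no shorter than 50 bases, 2381 (18.0%) held a match. Among genes with a 3′ UTR of 0.8 to 1.25 times the length, the share was 31.1% for PKIA (3446 bases), 27.7% for PRKAR1A (2982 bases), 20.5% for PRKAR2B (2229 bases) and 29.8% for PRKACB (3193 bases). It was 42.0% for PRKAR2A, whose 3′ UTR of 5006 bases is the longest of the family and held no match. The reverse complements TGAGCAT and TTGAGCA occurred 2 times in the 3′ UTR of PRKAR2A and 1 time in that of PRKAR2B, and in no other member. The match depends on the transcript: it was present in 2 of 3 annotated coding transcripts of PKIA, 5 of 6 of PRKAR1A, 1 of 1 of PRKAR2B and 8 of 12 of PRKACB. Which of these forms the cells make cannot be read from counts per gene. In ACSS2 the longer form ATGCTCAA stood in the coding sequence (chr20:34925740-34926107, plus strand, across an intron) and in 8 of 24 annotated transcripts. The longest transcript of 977 of 16201 tested genes (6.03%) held that 8-base form anywhere. Whether the ACSS2 match relates to those of the members was not tested.

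Library totals ran from 16617885 to 18133801 counts in shACSS2 and from 17073662 to 20831599 counts in NS. ACSS2 stood at 75, 84 and 110 counts in shACSS2, against 366, 387 and 438 counts in NS, and fell by 1.94 on the log2 scale (SE 0.145; adjusted p = 1.95e-06 by the quasi-likelihood test of edgeR with Benjamini-Hochberg adjustment). On log2 CPM (CPM being counts scaled to a common library total, here adjusted by TMM composition factors), a two-sided exact permutation test of ACSS2 reached p = 0.1, and 3 libraries against 3 can go no lower. Of 16 markers of adrenergic neuroblastoma, some had no counts in any library, among them PHOX2A, SOX11, TFAP2B and TH, which allows up to 0.0277 CPM over the 6 libraries by counting error alone. The summed level of the 16 was 122 to 149 CPM in shACSS2 and 106 to 112 CPM in NS. Of the 8 of them that were tested, GATA2, HAND1 and ISL1 rose, MYCN, CHGA and CHGB fell (log2 fold changes −1.14, −1.68 and −1.03), and 2 did not pass. The genes that fell were scarce in both groups. MYCN, CHGA and CHGB averaged 0.787, 0.589 and 1.06 CPM in shACSS2 and 1.75, 1.92 and 2.16 CPM in NS. Whether the cells match their label was not tested. The summed level of 10 fibroblast and stromal markers was 49.6 to 59.3 CPM in shACSS2 and 38.7 to 46.8 CPM in NS, with COL1A2 at 0. Within its group, shACSS2 replicate 1 deviated towards transcripts of low GC content (Spearman coefficient across genes −0.603, against 0.475 and 0.388 in shACSS2 replicates 2 and 3). Mitochondrially encoded transcripts made up 0.692% to 0.775% of the counts in shACSS2 and 1.25% to 2.2% in NS. Genes with any count numbered 22960 to 23353 per library in shACSS2 and 24268 to 24903 in NS. The part of these differences in the results was not tested.

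Of the 9 members, 3 passed the transcriptome-wide edgeR test at an adjusted p of 0.05, and all 3 were lower in shACSS2: PKIA, PRKAR2B and PRKAR1A. None was higher past the test. Over all tested genes 9.64% passed lower, 7.48% passed higher and 17.1% passed in either direction. In the same 3 members the groups were separate in CPM, as in 36.3% of all tested genes. The members' median log2 fold change was 0.06, beside 0.00 over all tested genes. Because the contrast was known when the family was chosen, nothing is read from these counts. In bulk libraries, fewer cells that make a transcript and less of it per cell cannot be told apart.

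**Figure D1:**
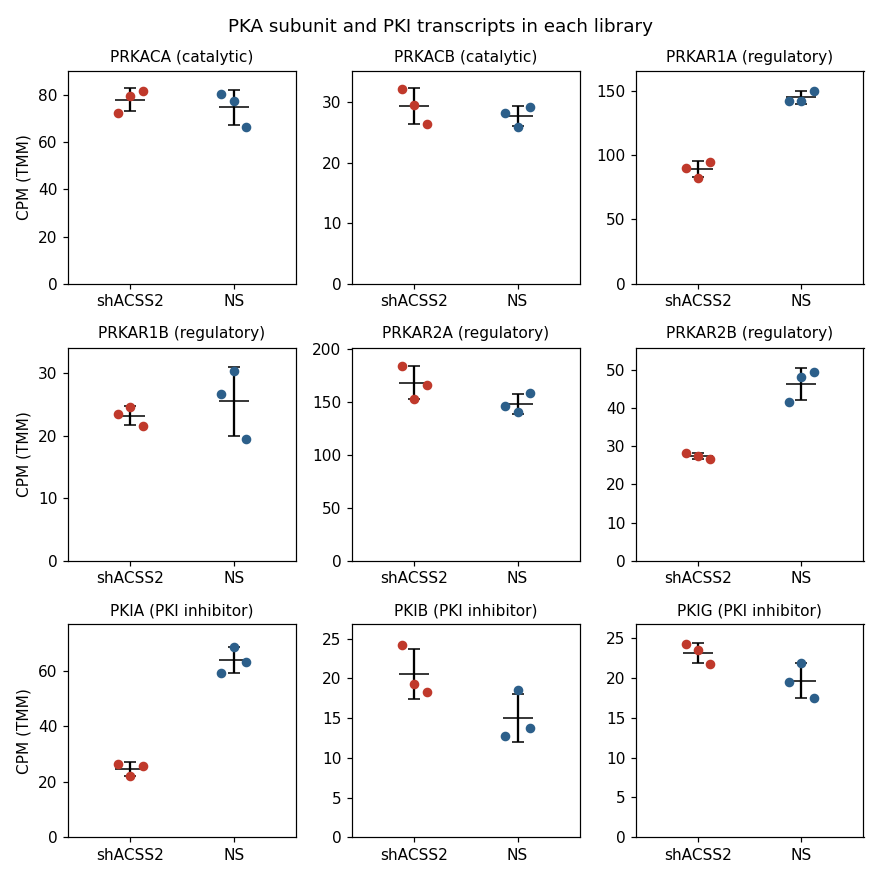
TMM-normalised CPM (y axes, each from 0) of the 9 genes in the 3 shACSS2 libraries (red, left) and the 3 NS libraries (blue, right); dashes and bars are the mean ± SD. The groups are separate for PRKAR1A, PRKAR2B and PKIA, with all shACSS2 points below all NS points, and overlap for the other members.

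The catalytic subunits were near level between the groups. PRKACA (chromosome 19, 14091688 to 14118084, minus strand, GRCh38), the catalytic subunit found in nearly every tissue, had 1164, 1302 and 1461 counts in shACSS2, against 1416, 1466 and 1445 counts in NS. Scaled for library composition these are 72.5, 79.6 and 81.8 CPM in shACSS2 and 80.6, 77.5 and 66.6 CPM in NS. The ranges overlap, and the log2 fold change was 0.06 (SE 0.103). PRKACB, the catalytic subunit with many splice forms and strong expression in brain, had 32.1, 29.5 and 26.3 CPM in shACSS2 and 28.2, 25.8 and 29.1 CPM in NS. Its groups overlap too, at a log2 fold change of 0.08 (SE 0.115). Per kilobase of exon, PRKACA took 71.2%, 74.7% and 77.3% of the catalytic level in shACSS2 and 75.8%, 76.7% and 71.5% in NS, and PRKACB the rest.

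The type I regulatory subunit PRKAR1A, whose loss causes Carney complex in people, was lower in shACSS2. It lies on chromosome 17 (68511780 to 68551319, plus strand) and had 1451, 1347 and 1689 counts in shACSS2, against 2492, 2679 and 3263 counts in NS. In CPM it stood at 90.3, 82.4 and 94.6 in shACSS2 and at 142, 142 and 150 in NS. The highest shACSS2 library lay far below the lowest NS library. The log2 fold change was −0.70 (SE 0.0946), a fitted fold of 0.616. Its processed pseudogene PRKAR1AP1 had 0 counts in every library. PRKAR1B, the type I subunit enriched in neurons, had 23.5, 24.6 and 21.6 CPM in shACSS2 and 26.7, 30.3 and 19.5 CPM in NS. The NS libraries spread widely around the shACSS2 ones, and the log2 fold change was −0.13 (SE 0.146). DNAAF5 overlaps PRKAR1B on the other strand with 1525 to 2600 counts, and since sources used here do not state whether counting used strand, the value of PRKAR1B is uncertain.

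The type II subunits differed from each other. PRKAR2B (chromosome 7, 107044649 to 107161811, plus strand), the form typical of brain and fat, had 454, 449 and 475 counts in shACSS2, against 731, 912 and 1073 counts in NS. This gave 28.3, 27.5 and 26.6 CPM in shACSS2 and 41.6, 48.2 and 49.5 CPM in NS. The shACSS2 libraries were tightly grouped and all below NS, at a log2 fold change of −0.76 (SE 0.108; fitted fold 0.591). PRKAR2A (chromosome 3, 48744597 to 48847846, minus strand), the widely expressed type II subunit, had 184, 153 and 166 CPM in shACSS2 and 146, 140 and 158 CPM in NS. Its log2 fold change was 0.18 (SE 0.0988), and shACSS2 replicate 2 lay within the NS range. PRKAR2A and PRKAR2B thus had fitted changes of opposite sign. PRKAR2A-AS1, an antisense transcript of PRKAR2A, had only 35 to 64 counts.

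Among the inhibitors, PKIA showed the largest difference of the family. PKIA (chromosome 8, 78516139 to 78605267, plus strand), the PKI form first purified from muscle and abundant in brain, had 427, 359 and 463 counts in shACSS2, against 1042, 1301 and 1371 counts in NS. In CPM it stood at 26.6, 22.0 and 25.9 in shACSS2 and at 59.3, 68.7 and 63.2 in NS. Every shACSS2 library was below every NS library, at a log2 fold change of −1.36 (SE 0.112), a fitted fold of 0.389. Of all tested genes, 0.790% had a lower log2 fold change than PKIA, against 5.31% for PRKAR2B and 6.32% for PRKAR1A. The antisense gene PKIA-AS1 had 4 to 8 counts per library.

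PKIB, another inhibitor gene, had 388, 315 and 326 counts in shACSS2, against 225, 350 and 300 counts in NS. This gave 24.2, 19.3 and 18.3 CPM in shACSS2 and 12.8, 18.5 and 13.8 CPM in NS. It had the highest log2 fold change of the family, 0.45 (SE 0.155), but NS replicate 2 lay inside the shACSS2 range and PKIB did not pass the test. Without NS replicate 2 the value was 0.62 and passed. PKIG, the form with the widest tissue distribution, had 24.2, 23.5 and 21.7 CPM in shACSS2 and 19.5, 21.8 and 17.4 CPM in NS, at a log2 fold change of 0.24 (SE 0.122). NS replicate 2 reached just above the lowest shACSS2 library. ADA overlaps PKIG on the other strand with 477 to 727 counts, so that the value of PKIG is uncertain.

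**Figure D2:**
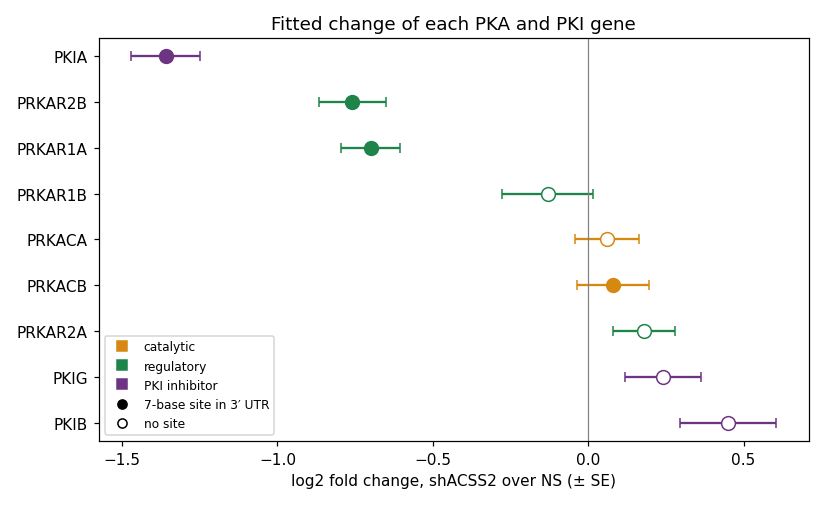
Log2 fold change, shACSS2 over NS, of the 9 genes (points) with its SE (bars), ordered by value and coloured by role; filled points are genes whose longest annotated 3′ UTR holds ATGCTCA. PKIA, PRKAR2B and PRKAR1A lie between −1.36 and −0.70 and are filled, PRKACB at 0.08 is filled too, and the 5 open points lie between −0.13 and 0.45.

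Because the sequences were picked out from the fold changes of these same libraries, the medians that follow are a description only. The 4 members with a match had a median log2 fold change of −0.73, and the 5 without it one of 0.18. The 4 also had less GC, with a median of 38.8% in the longest transcript, against 54.2% in the other 5, and longer 3′ UTRs in all but the case of PRKAR2A. PKIB, with 34.9% GC and no match, had the highest log2 fold change but did not pass the main test. With GC content and gene length corrected in every library, PKIA, PRKAR1A and PRKAR2B stood at −1.37, −0.65 and −0.78 on the log2 scale, and PRKACB at 0.13. The parts of GC content, 3′ UTR length and the match in these differences were not tested.

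The makeup of the regulatory and inhibitor classes differed between the groups, while the catalytic class was near level. Levels are compared here as CPM per kilobase of the union of a gene's exons. Shares within a class are tied together, so lower levels of some members raise the shares of the others. PRKAR2A, PKIB and PKIG, whose shares were higher in shACSS2, did not themselves pass the main test. Among the regulatory transcripts, PRKAR1A made up 26.2 ± 1.44% in shACSS2 and 35.4 ± 0.571% in NS, and PRKAR2A made up 50.6 ± 1.80% in shACSS2 and 37.1 ± 1.70% in NS (SD, n = 3 each). PRKAR2B made up 12.8 ± 0.661% in shACSS2 and 17.9 ± 1.22% in NS, while PRKAR1B, at 10.4 ± 1.10% in shACSS2 and 9.52 ± 2.21% in NS, did not differ beyond its spread. Type I transcripts together were 35.0%, 37.4% and 37.5% of the regulatory level in shACSS2 and 45.9%, 46.1% and 42.9% in NS. No shACSS2 library reached the NS range for this type I share, which includes PRKAR1B with its uncertain value. With the longest transcript as the length it was 47.2 ± 1.49% in shACSS2 and 55.2 ± 1.92% in NS.

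PKIA was 27.4%, 25.7% and 30.5% of the PKI level in shACSS2, against 55.0%, 53.6% and 57.7% in NS. PKIB was 28.2 ± 2.14% in shACSS2 and 15.9 ± 1.61% in NS, and PKIG was 43.9 ± 2.33% in shACSS2 and 28.7 ± 1.81% in NS (SD, n = 3 each). PKIA was thus the leading inhibitor transcript in every NS library and PKIG in every shACSS2 library. The value of PKIG is uncertain because ADA overlaps it on the other strand. With the longest transcript in place of the exon union, PKIA was 18.6 ± 1.82% in shACSS2 and 42.4 ± 2.06% in NS, and PKIG again led in shACSS2 and PKIA in NS. With no length at all the order in shACSS2 was not settled, since PKIA averaged 36.3 ± 2.78% and PKIG 33.8 ± 2.16%, and PKIG led in shACSS2 replicate 2 alone.

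**Figure D3:**
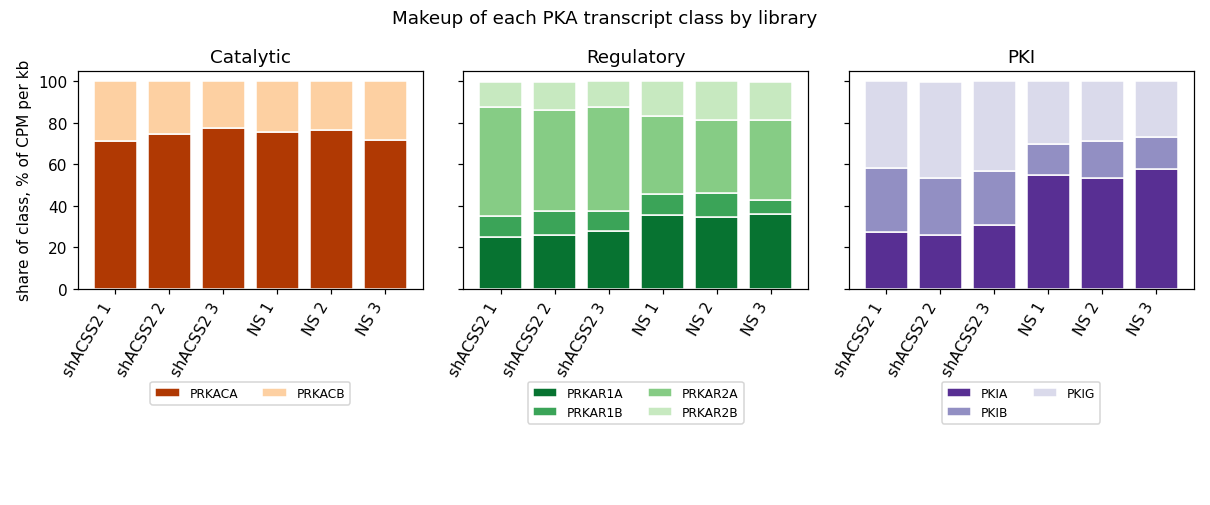
Share of each gene in the summed CPM per kb of its class (y axis, percent) in each library, shACSS2 replicates 1 to 3 on the left of each panel and NS replicates 1 to 3 on the right. PRKACA holds 71.2% to 77.3% of the catalytic class in all libraries, PRKAR2A holds 49.0% to 52.5% of the regulatory class in shACSS2 and 35.2% to 38.5% in NS, and PKIA holds 25.7% to 30.5% of the PKI class in shACSS2 and 53.6% to 57.7% in NS.

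Summed over each class, regulatory transcripts stood at 49.8 ± 2.89 CPM per kb in shACSS2 and 59.9 ± 1.66 CPM per kb in NS, and catalytic ones at 17.0 ± 0.419 CPM per kb in shACSS2 and 16.3 ± 1.07 CPM per kb in NS (SD, n = 3 each). The ratio of regulatory to catalytic transcripts was 3.18, 2.71 and 2.89 in shACSS2 and 3.37, 3.63 and 4.06 in NS, without overlap. The ratio of PKI to catalytic transcripts was 1.39, 1.17 and 1.17 in shACSS2 and 1.48, 1.85 and 1.71 in NS, also without overlap. With the longest transcript as the length the PKI ratio was 1.02 ± 0.116 in shACSS2 and 1.20 ± 0.138 in NS, where shACSS2 replicate 1 (1.15) lay above NS replicate 1 (1.05). The ratios are built from the same counts as the members' differences above, so they are not separate results. They are ratios of transcripts, and protein was not measured.

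The order of levels per kilobase also differed. In shACSS2, PRKAR2A led at 25.2 ± 2.35 CPM per kb, apart from the rest. PRKAR1A (13.1 ± 0.909) and PRKACA (12.7 ± 0.795) followed with overlapping ranges, then PKIG (9.26 ± 0.503). PRKAR2B, PKIB, PKIA and PRKAR1B, from 6.36 ± 0.193 down to 5.18 ± 0.340 CPM per kb, each overlapped their neighbour in this order, and PRKACB was lowest at 4.35 ± 0.432 CPM per kb. In NS, PRKAR2A (22.2 ± 1.38) and PRKAR1A (21.2 ± 0.739) led together, and PKIA came next at 15.1 ± 1.12 CPM per kb. PRKACA (12.2 ± 1.19) and PRKAR2B (10.8 ± 0.975) overlapped, PKIG stood at 7.84 ± 0.881, and PRKAR1B, PKIB and PRKACB overlapped in turn between 5.68 ± 1.23 and 4.12 ± 0.252 CPM per kb (SD, n = 3 throughout). The order depends on the length used: with the longest transcript, PRKAR1A made up 42.5 ± 1.05% of the regulatory level in NS, above PRKAR2A in each NS library.

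Likeness to PKIA over the 6 libraries was measured in 11894 other genes that averaged 5 CPM or more, as the root mean square difference of mean-centred log2 CPM. Among the closest were CREB3L2 (0.133), SEC23A (0.135), HERC3 (0.142) and FAM98A (0.144). CREB3L2, a membrane-bound transcription factor, averaged 42.6 ± 0.921 CPM in shACSS2 and 108 ± 6.95 CPM in NS (SD, n = 3 each). SEC23A, a COPII coat subunit, averaged 69.9 ± 11.8 CPM in shACSS2 and 163 ± 9.64 CPM in NS. Each of these genes held ATGCTCA or TGCTCAA in its longest annotated 3′ UTR. The share of 18.0% given above mixes 3′ UTRs of all lengths, and at the members' lengths it ran from 7.43% (PKIG) to 42.0% (PRKAR2A). No share at like length was taken for the genes named here, so the 18.0% is not a matched comparison. They were selected for likeness to PKIA and so share its fall, with log2 fold changes of −1.34 to −1.14. The sequences were picked out from fold changes in these same libraries, so matches among such genes are a description only. Whether the matches relate to the falls was not tested.

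Outside the 9 genes, the PKA family has another catalytic gene and a close relative. PRKACG, a retrogene expressed in testis, had 0 counts in every library, which allows up to 0.0277 CPM over all 6. PRKX, a kinase of the same branch encoded on the X chromosome, had 77.1, 63.4 and 67.8 CPM in shACSS2 and 52.9, 48.1 and 58.1 CPM in NS, with no overlap. It rose with a log2 fold change of 0.39 (SE 0.109, adjusted p = 0.0244 in edgeR), and its 3′ UTR holds a match. PRKX no longer passed when NS replicate 1, NS replicate 2 or shACSS2 replicate 3 was dropped, at 0.38, 0.32 and 0.41 on the log2 scale (adjusted p = 0.108, 0.0923 and 0.0511 in edgeR), and with scaling by library totals alone (0.31, adjusted p = 0.0636). A near-identical copy of PRKX elsewhere in the genome can share its reads, so its value is uncertain.

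Upstream of PKA stand the enzymes of cAMP synthesis and the G proteins that control them. For this and the lists that follow, 9.64% of all tested genes passed lower and 7.48% passed higher. The lists are short and were chosen with earlier results of these data known, so their counts are a description only. Of 10 adenylyl cyclases, 6 were tested and 0 passed the test in edgeR, DESeq2 or voom (median log2 fold change −0.14), with 1 at an unadjusted p under 0.05. With GC content and length corrected, 1 cyclase and 1 G protein gene of the lists passed as higher. The smallest p were those of ADCY1 and ADCY9, at −0.26 (SE 0.114, adjusted p = 0.123 in edgeR) and −0.21 (SE 0.119, adjusted p = 0.234 in edgeR) on the log2 scale. Of 7 G protein alpha subunits that act on adenylyl cyclase, 1 fell and 6 did not pass the test (median −0.07). GNAO1, the Go alpha subunit abundant in neurons, fell with a log2 fold change of −0.61 (SE 0.165, adjusted p = 0.0204 in edgeR), at 21.6 ± 6.16 CPM in shACSS2 and 32.9 ± 2.78 CPM in NS (SD, n = 3 each). Its call ended without NS replicate 1 (−0.61, adjusted p = 0.0731) or NS replicate 3 (−0.54, adjusted p = 0.0985). It stood at −0.40 without shACSS2 replicate 1 and at −0.39 with GC content and length corrected, and passed in both. GNAS, the stimulatory alpha subunit, had 1090 ± 94.4 CPM in shACSS2 and 1100 ± 55.1 CPM in NS.

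Of 16 phosphodiesterases that break down cAMP, 14 were tested, of which 1 rose, 1 fell and 12 did not pass (median log2 fold change −0.16). These counts depend on the processing, with 3 higher and 0 lower after the GC and length correction, 0 higher and 2 lower with library totals, and 2 higher and 3 lower without shACSS2 replicate 1. PDE4A rose with a log2 fold change of 0.37 (SE 0.118, adjusted p = 0.0443 in edgeR) and PDE10A, which holds a 3′ UTR match, fell with one of −0.39 (SE 0.128, adjusted p = 0.0481 in edgeR). Each call ended when any of 5 libraries was left out, all but shACSS2 replicate 1, at values of 0.32 to 0.40 for PDE4A (edgeR adjusted p = 0.119 to 0.14) and −0.47 to −0.33 for PDE10A (edgeR adjusted p = 0.0536 to 0.18). With GC content and length corrected, PDE10A stood at −0.10 (edgeR adjusted p = 0.546). The other tested phosphodiesterases with a match did not pass: PDE7B stood at 1.47, and PDE3A, PDE3B and PDE4D at −0.28, −0.15 and −0.32. PDE7B was scarce, at 0.972 ± 0.313 CPM in shACSS2 and 0.355 ± 0.199 CPM in NS (SD, n = 3 each).

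A-kinase anchoring proteins hold regulatory subunits at membranes, the centrosome and other sites. Of 24 listed, 19 were tested, of which 1 rose, 4 fell and 14 did not pass (median log2 fold change −0.10). AKAP11, an endosomal anchor, fell with a log2 fold change of −0.68 (SE 0.141, adjusted p = 0.00452 in edgeR), at 79.8, 49.0 and 55.6 CPM in shACSS2 and 101, 95.3 and 99.5 CPM in NS. AKAP9, the large anchor of the centrosome and Golgi, fell with one of −0.58 (SE 0.111, adjusted p = 0.0031 in edgeR), at 42.5, 42.7 and 46.3 CPM in shACSS2 and 73.0, 56.4 and 66.8 CPM in NS. Both were lower in every shACSS2 library, and both passed in all 18 alternatives run, with AKAP9 at −0.33 where GC content and length were corrected. AKAP13, an anchor best known from heart muscle, had a log2 fold change of −0.50 (SE 0.128, adjusted p = 0.0151 in edgeR), which did not pass without NS replicate 1 (−0.39, adjusted p = 0.116), and stood at −0.23 with GC content and length corrected (adjusted p = 0.0797). AKAP3, a scarce transcript best known from sperm, had one of −1.04 (SE 0.346, adjusted p = 0.0492 in edgeR), and did not pass when any library but shACSS2 replicate 2 was left out (−1.21 to −0.72, adjusted p = 0.0585 to 0.27). The member that rose was RAB32, a small GTPase that anchors PKA at mitochondria, named here after its value was seen. Its log2 fold change was 0.48 (SE 0.148, adjusted p = 0.0363 in edgeR), and the call held only when NS replicate 2 was the library left out (without another library 0.30 to 0.53, adjusted p = 0.06 to 0.177).

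Among 12 other proteins that bind cAMP, 8 were tested, of which 1 rose and 7 did not pass (median log2 fold change 0.06). POPDC3, a Popeye-domain membrane protein, rose with a log2 fold change of 0.43 (SE 0.137, adjusted p = 0.0407 in edgeR), at 13.4 ± 1.19 CPM in shACSS2 and 9.87 ± 0.274 CPM in NS (SD, n = 3 each). The call ended without any library but shACSS2 replicate 3, at 0.40 to 0.45 (edgeR adjusted p = 0.0527 to 0.156).

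In the nuclear arm of the pathway, the coactivators EP300, CREBBP and CRTC1 fell, and their relatives CRTC2 (0.18) and CRTC3 (−0.31 on the log2 scale) did not pass the test. Of 11 genes of the CREB family, its coactivators and the SIK kinases, all tested, 3 fell, 0 rose and 8 did not pass (median log2 fold change −0.19). EP300, the acetyltransferase p300, fell with a log2 fold change of −0.52 (SE 0.0958, adjusted p = 0.00224 in edgeR), at 105, 104 and 106 CPM in shACSS2 and 165, 149 and 139 CPM in NS, and stood at −0.34 with GC content and length corrected (adjusted p = 0.00387). Its close relative CREBBP, which binds phosphorylated CREB, fell with one of −0.38 (SE 0.107, adjusted p = 0.0234 in edgeR), and CRTC1, a CREB coactivator held in the cytoplasm by SIK kinases, with one of −0.53 (SE 0.139, adjusted p = 0.0177 in edgeR). CRTC1 no longer passed when NS replicate 1 or NS replicate 3 was dropped, at −0.52 each (adjusted p = 0.0794 and 0.0698). CREBBP no longer passed when NS replicate 1, NS replicate 2 or shACSS2 replicate 2 was dropped, at −0.35, −0.37 and −0.39 (adjusted p = 0.12, 0.0591 and 0.0502), and it stood at −0.14 with GC content and length corrected (adjusted p = 0.166). CREB1 had a log2 fold change of −0.10 (SE 0.137, adjusted p = 0.656 in edgeR).

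Of 20 genes that cAMP and CREB induce in many cell types, 14 were tested, of which 2 rose, 0 fell and 12 did not pass (median log2 fold change 0.12). DUSP1, a MAP kinase phosphatase, rose with a log2 fold change of 0.68 (SE 0.126, adjusted p = 0.00252 in edgeR), at 22.0 ± 0.963 CPM in shACSS2 and 13.8 ± 1.50 CPM in NS (SD, n = 3 each). ATF3, a stress-induced transcription factor, rose with one of 0.66 (SE 0.127, adjusted p = 0.00303 in edgeR), at 112 ± 22.1 CPM in shACSS2 and 70.5 ± 4.62 CPM in NS. Other signals induce both genes as well. The receptor genes NR4A1, NR4A2 and NR4A3, common readouts of cAMP, stood at 0.01 (SE 0.144), 0.36 (SE 0.206) and 0.35 (SE 0.212) on the log2 scale and did not pass, and PER1 had one of 0.07 (SE 0.119). TH, NPY, PENK and CRH had no counts. Over all 8 lists, 1 of the 9 genes that fell held a 3′ UTR match, as did 1 of the 6 that rose and 18 of the 65 that did not pass and had a 3′ UTR.

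**Figure D4:**
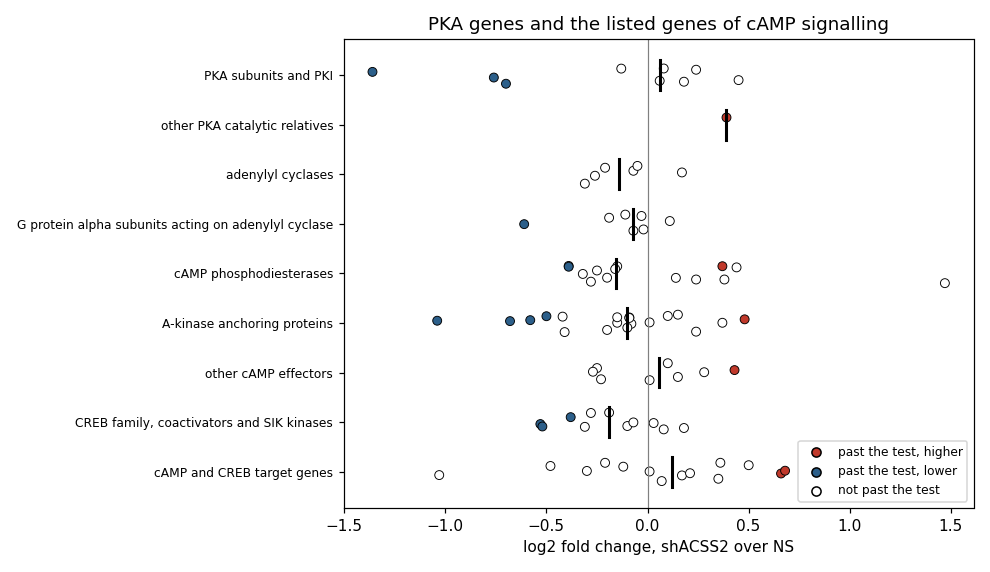
Log2 fold change, shACSS2 over NS, of the 9 PKA and PKI genes (top row) and of the tested genes of 8 cAMP signalling lists (one point a gene, spread vertically for sight only); red and blue points passed the edgeR test as higher or lower, white points did not, and black bars are medians. Medians of the lists with more than 1 gene lie between −0.19 and 0.12, PKIA at −1.36 is the lowest point and PDE7B at 1.47 the highest.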

How the data were processed

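RNA was sequenced from 6 libraries, 3 shACSS2 and 3 NS, grouped by title. The authors deposited a table of raw read counts per gene, not normalised. The submitters' processing notes list HISAT2 2.0.5 and build hg19, beside fastp, DESeq2 (as 4.3.1) and featureCounts 1.5.0-p3, and sources used here do not state the strand and multi-mapping settings. Identifiers matched GENCODE v29 (GRCh38), from which names, positions, lengths and 3′ UTRs came; 27 names turned into dates were restored. Coordinates are therefore GRCh38.

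The main test of the counts used R 4.3.3 and edgeR 4.0.16 (TMM, default filter, robust quasi-likelihood F test, group as the only term, Benjamini-Hochberg adjustment over 16210 genes, 0.05), a script tested on simulated data. CPM use TMM factors. SE is the fold change over the root of F. A chi-square test within groups gave 4.28 to 17.3 per degree of freedom (pairs of libraries, genes summing to 20 counts or more), so no library was a copy of another within sampling noise; whether the libraries are biological replicates was not tested.

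Members and the lists were chosen with earlier results of these data known. From each list the text names the 4 largest changes past the test among genes averaging 1 CPM or more (fewer where fewer passed), or else the 2 with the smallest p; other list genes named here were added as context after their values were seen. The alternatives were other scalings, filters and tools (DESeq2 1.42.0, voom of limma 3.58.1), an adjusted p of 0.01, omission of mitochondrial genes or of each library, a GC and length correction (splines of 5 degrees of freedom per library), and the replicate block. Figures and sequences used Python 3.11.15. Some genes that these rules select are not reported here.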

Additional observations from a re-analysis of the deposited data

How the results depend on the processing

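PKIA, PRKAR1A and PRKAR2B kept their direction and passed in all 18 alternatives, with log2 fold changes of −1.43 to −1.28, −0.77 to −0.64 and −0.84 to −0.71, as did ACSS2 (−2.06 to −1.85). The number of members past the test was 3, and 5 with the GC and length correction, alone or with the replicate block, where PKIB (0.44 and 0.46) and PRKAR2A (0.22 in both) passed as higher. PKIB also passed with upper quartile scaling, no count filter, DESeq2, the replicate block (0.45) and without NS replicate 2. Leaving out each library in turn gave 3 to 4 members. Values near 0 changed sign: PRKACA stood at −0.01 with library totals and −0.02 without NS replicate 3, and PRKAR1B at 0.01 without NS replicate 2; leaving out each library in turn gave −0.02 to 0.11 for PRKACA and −0.30 to 0.01 for PRKAR1B. The number of genes past the test was 2776. It was 1010 at an adjusted p of 0.01, 4583 with the GC and length correction, 4743 with that correction and the replicate block, and 1018 to 3931 without each library in turn (1018 without NS replicate 1, 1151 without NS replicate 3). The replicate block alone gave 2923. With library totals 734 genes were higher and 2108 lower, against 1213 and 1563. The cause of these shifts was not tested. Same-numbered libraries did not deviate together (r = −0.0428, −0.0664 and 0.112), so the numbers are not read as pairs.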
